A study of Mus musculus with 11 samples.

Results

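The genes described here are the nuclear genes for subunits of the mitochondrial respiratory chain and of ATP synthase, measured by RNA-seq in mouse airway. They were taken by symbol, as protein-coding genes whose names begin with Nduf followed by a, b, c, s or v and a digit, with Uqcr, with Cox4 to Cox8 or with Atp5, together with Sdha, Sdhb, Sdhc and Sdhd. This gave 85 gene identifiers of the 21899 listed, with 84 symbols because Atp5o was listed under 2 identifiers. They comprised 37 identifiers under complex I, 4 under complex II, 8 under complex III, 18 under complex IV and 18 under ATP synthase. Ndufa4 and Ndufa4l2 stand under complex I by their names, although the Ndufa4 protein is known as a subunit of complex IV. A level is given in FPKM, fragments per kilobase of transcript scaled to the mapped fragments of the library. The 82 that averaged 0.5 FPKM or more across the 11 libraries were tested. The other 3, Cox7b2, Cox8c and the Atp5o entry ENSMUSG00000116933, were listed at 0 in every library.

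All mice were wild type and, by the study's methods, male BALB/c mice of 6 to 8 weeks. The PBS group (3 libraries, numbered 1 to 3) was not sensitised and received sterile PBS only. The OVA/LPS/Vehicle group (OL, 4 libraries, numbered 12, 34, 56 and 78) received ovalbumin (OVA) with alum on days 0 and 7, intranasal OVA on days 14 to 17, intranasal lipopolysaccharide (LPS, 50 ng) on days 19 and 21, and vehicle into the trachea on days 21, 22 and 23. The OVA/LPS/GGsTop group (OLG, 4 libraries, numbered 1 to 4) had the same sensitisation and challenges and received GGsTop, an inhibitor of gamma-glutamyl transferase, at 0.5 mg/kg in place of vehicle, and airways were taken on day 25. The labels state neither whether each library is 1 mouse nor whether the 2-digit OL numbers mark pools, so that the p-values below measure only the spread between these libraries.

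The respiratory chain sits in the inner membrane of the mitochondrion. Complexes I and II pass electrons from NADH and succinate to ubiquinone, complex III passes them on to cytochrome c, and complex IV hands them to oxygen, while ATP synthase uses the resulting proton gradient to make ATP. Most subunits are encoded in the nucleus and join a small core encoded in mitochondrial DNA. Several subunits of complex IV exist as tissue isoforms, among them Cox6a2, Cox7a1 and Cox8b of heart and skeletal muscle and Cox4i2, which is abundant in lung.

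The labels name the tissue as trachea, whereas the methods describe bluntly dissected airways without the trachea. Markers of airway epithelium summed to between 30755 and 53728 FPKM in every library, of which Scgb1a1, a club cell secretory protein, made up 84.1 to 98.5%. The other 9 summed to 854, 4610 and 567 FPKM in PBS 1, 2 and 3, to between 3794 and 5970 FPKM in OL and to 1602, 2651, 930 and 7347 FPKM in OLG 1, 2, 3 and 4. Markers of alveolar epithelium summed to between 4774 and 16681 FPKM, of which Sftpc alone was at 3541 to 12502 FPKM. Cardiac muscle markers, with Myl2 near 0 throughout, summed to 10.1, 1400 and 51.9 FPKM in PBS 1, 2 and 3, to between 687 and 1147 FPKM in OL and to between 408 and 1937 FPKM in OLG. Brown fat markers, with Zic1 near 0 throughout, summed to between 19.1 and 109 FPKM in PBS, 128 and 512 FPKM in OL, and 16.9 and 117 FPKM in OLG. PBS 1 and PBS 3 thus stood apart from the other 9 libraries by their low cardiac level. The FPKM values implied 14513136 to 18632382 fragments per library.

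The promoters of the subunit genes were searched for 4 short motifs, each absent from most of the promoters found. RefSeq (GRCm38.p6) promoters ran from 250 bases before to 50 bases after an annotated start. They were matched by gene identifier, or by symbol where that found none. The match gave 71 sequences for 66 of the 84 symbols. On either strand, GCGCATGCG, a core of the site of nuclear respiratory factor 1 (NRF1), was found in 11.3% of them and in 1.75% of all 32851 promoters. AAGATGGC, a YY1 motif, was found in 12.7% against 2.75%, CCGGAAGT, the ETS motif that GABPA binds, in 7.04% against 3.89%, and TCAAGGTCA, an ERRA motif, in 2.82% against 0.423%. These are matches of letters and not measured binding. The promoters of Ndufa3 and Atp5k are given because their values lead the comparisons, and those of Cox8a and Cox8b because they belong to the ubiquitous and the muscle isoform of 1 subunit. Capitals mark the motif matches, which are AAGATGGC in Ndufa3, both overlapping orientations of GCGCATGCG in Atp5k and 2 reverse matches of CCGGAAGT in Cox8a. None of the 4 sets of letters occurs in the Cox8b window.
Ndufa3, chr7:3617123-3617422, plus strand: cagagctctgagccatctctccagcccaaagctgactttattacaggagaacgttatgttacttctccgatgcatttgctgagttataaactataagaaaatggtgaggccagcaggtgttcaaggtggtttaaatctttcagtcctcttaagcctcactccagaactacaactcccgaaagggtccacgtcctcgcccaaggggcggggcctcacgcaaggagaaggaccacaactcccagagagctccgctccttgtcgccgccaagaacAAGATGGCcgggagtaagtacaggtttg
Atp5k, chr5:108434350-108434649, minus strand: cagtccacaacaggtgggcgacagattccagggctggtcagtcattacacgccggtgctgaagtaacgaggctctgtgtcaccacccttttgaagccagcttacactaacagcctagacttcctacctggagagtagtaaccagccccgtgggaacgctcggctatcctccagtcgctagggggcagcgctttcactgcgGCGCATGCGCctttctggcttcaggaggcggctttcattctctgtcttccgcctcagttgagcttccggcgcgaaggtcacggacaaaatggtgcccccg
Cox8a, chr19:7217567-7217866, minus strand: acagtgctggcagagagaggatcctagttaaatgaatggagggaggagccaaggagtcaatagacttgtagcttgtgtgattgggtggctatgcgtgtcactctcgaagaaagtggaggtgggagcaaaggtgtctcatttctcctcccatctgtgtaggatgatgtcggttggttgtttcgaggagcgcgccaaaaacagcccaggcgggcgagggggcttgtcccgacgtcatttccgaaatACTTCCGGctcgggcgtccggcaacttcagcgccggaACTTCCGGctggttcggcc
Cox8b, chr7:140900397-140900696, minus strand: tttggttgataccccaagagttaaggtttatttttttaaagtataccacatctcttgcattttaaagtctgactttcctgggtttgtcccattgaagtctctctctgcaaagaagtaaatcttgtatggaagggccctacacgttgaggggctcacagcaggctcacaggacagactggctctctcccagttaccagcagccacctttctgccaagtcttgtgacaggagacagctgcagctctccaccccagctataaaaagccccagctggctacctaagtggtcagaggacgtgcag
The match in Ndufa3 begins 22 bases after the start, and those in Atp5k begin 50 and 49 bases before it. The build differs from the mm39 assembly that the submitters' processing notes name, and these positions hold for GRCm38.p6 only.

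The first comparison set airways after sensitisation with OVA, challenge with OVA and LPS, and vehicle beside those of the PBS group. The methods name no vehicle for the PBS group, so that the parts of OVA, LPS and vehicle cannot be told apart. Subunit genes of every complex were higher in OL than in PBS. Of the 82 tested, 35 rose (42.7%, where 15.9% of all 14004 genes tested rose), 2 fell (22.1% of all genes fell), and 45 did not pass the test, which was limma on log2(FPKM + 1) with Benjamini-Hochberg adjustment over all genes and a threshold of 0.05. The estimate was positive for 74 and negative for 8, and the median log2 fold change was 0.47, against -0.01 for all genes. In 29 of the 82 every OL library lay above every PBS library, as for 18.7% of all genes. Cardiac marker sums were also higher in OL than in PBS 1 and PBS 3, but not than in PBS 2. Brown fat marker sums were higher in every OL library than in every PBS library. Of the 10 airway epithelium markers, all had positive estimates and 6 rose in OL against PBS, with a median log2 fold change of 1.45, and the part of airway epithelium in the members' result was not tested. In bulk tissue, fewer cells of a type and less RNA per cell cannot be told apart.

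**Figure D1:**
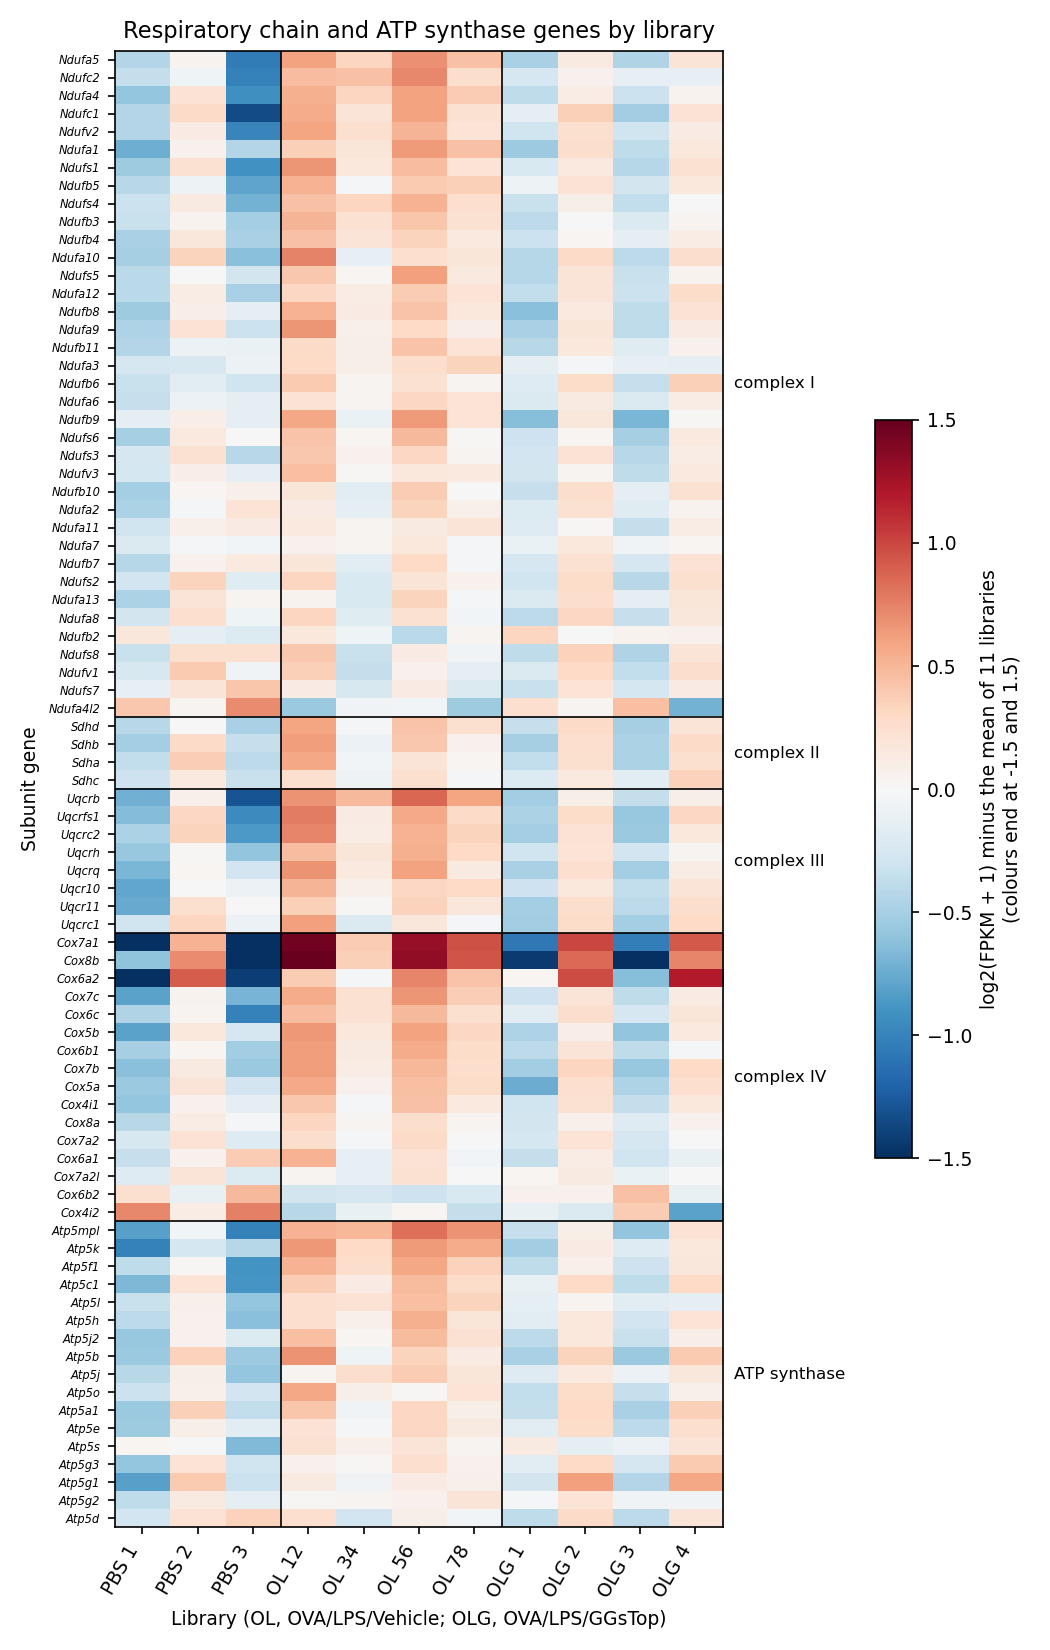
Heat map of 82 subunit genes (rows, grouped by complex and ordered within it by the OL against PBS fold change) in 11 libraries (columns). Colour gives log2(FPKM + 1) minus the gene's mean over all libraries; most rows are red in OL and blue in PBS 1, PBS 3, OLG 1 and OLG 3, while Cox4i2 and Cox6b2 run the other way.

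Taken library by library, the median of the 82 genes relative to each gene's mean over all libraries was -0.44, 0.11 and -0.31 on the log2 scale in PBS 1, 2 and 3. It was 0.43, 0.04, 0.38 and 0.18 in OL 12, 34, 56 and 78, and -0.32, 0.21, -0.35 and 0.16 in OLG 1, 2, 3 and 4. PBS 2, OLG 2 and OLG 4 therefore lay within the range of the OL libraries, and PBS and OL overlapped. The SD of this median between libraries of a group was 0.26.

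Complex I, which oxidises NADH, had 15 genes that rose and none that fell among 37, with a median log2 fold change of 0.44. Those that rose were Ndufa5, Ndufc2, Ndufa4, Ndufc1, Ndufv2, Ndufa1, Ndufs1, Ndufb5, Ndufs4, Ndufb3, Ndufb4, Ndufs5, Ndufb11, Ndufa3 and Ndufa6, most of which encode accessory subunits that surround the catalytic core. Of the 7 nuclear-encoded core subunits, grouped after their values were seen, 2 rose (Ndufs1 and Ndufv2), and their log2 fold changes ran from -0.21 to 0.82 with a median of 0.13. Ndufa3, an accessory subunit, had levels of 21.3, 21.6 and 24.1 FPKM in PBS and of 31.8, 27.3, 31.0 and 32.6 FPKM in OL. All OL libraries were above all PBS libraries, with means of 22.3 ± 1.51 (SD, n = 3) and 30.7 ± 2.33 FPKM (SD, n = 4). The log2 fold change was 0.44 (SE 0.09, limma adjusted p = 0.00662). Ndufc2, a membrane-arm subunit, was at 60.3, 73.8 and 37.9 FPKM in PBS and at 107, 105, 128 and 93.1 FPKM in OL. Its groups did not overlap and its log2 fold change was 0.95 (SE 0.20, limma adjusted p = 0.00641). Ndufa5, an accessory subunit of the matrix arm, was at 22.5, 32.2 and 14.5 FPKM in PBS and at 47.4, 38.9, 50.3 and 42.2 FPKM in OL, again without overlap, a log2 fold change of 0.99 (SE 0.25, limma adjusted p = 0.0121). Ndufb5 spanned 3.70 to 6.69 FPKM in PBS and 7.05 to 10.7 FPKM in OL, and rose by 0.74 (SE 0.19, limma adjusted p = 0.0124). Ndufa4, at the highest level of the 37 with a mean of 107 FPKM over all libraries, spanned 53.2 to 118 FPKM in PBS and 127 to 155 FPKM in OL and rose by 0.89 (SE 0.23, limma adjusted p = 0.0142). The lowest estimate was that of its relative Ndufa4l2, at 21.8 to 35.2 FPKM in PBS and 14 to 20.5 FPKM in OL, which did not pass the test (-0.68, SE 0.26, limma adjusted p = 0.0584).

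Complex II, succinate dehydrogenase, is the only complex of the chain with no subunit encoded in mitochondrial DNA. Sdhd, a membrane anchor and the most abundant of the 4 at a mean of 89.3 FPKM, was at 64.3, 86.9 and 61.4 FPKM in PBS and at 131, 85.0, 117 and 102 FPKM in OL. OL 34 lay below PBS 2, and Sdhd rose by 0.61 (SE 0.22, limma adjusted p = 0.0463). Sdha, the flavoprotein, Sdhb, the iron-sulphur subunit, and Sdhc, the other anchor, had log2 fold changes of 0.32, 0.44 and 0.27 and did not pass the test (limma adjusted p = 0.304, 0.204 and 0.218). The groups overlapped for all 3.

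In complex III, the cytochrome bc1 complex, 5 of 8 genes rose, none fell, and the median log2 fold change was 0.73. Uqcrb, a small subunit at the ubiquinone site, was at 24.8, 43.8 and 16.4 FPKM in PBS and at 66.9, 58.8, 76.5 and 63.3 FPKM in OL. Every OL library exceeded every PBS library, and the log2 fold change of 1.30 (SE 0.27, limma adjusted p = 0.00638) was the largest outside complex IV. Uqcrh, the hinge protein, spanned 60.9 to 93.3 FPKM in PBS and 105 to 134 FPKM in OL and rose by 0.75 (SE 0.18, limma adjusted p = 0.0103). Uqcr10, at the highest level of the complex with a mean of 148 FPKM, spanned 83.2 to 143 FPKM in PBS and 152 to 205 FPKM in OL, a log2 fold change of 0.59 (SE 0.21, limma adjusted p = 0.0441). Uqcrfs1, the Rieske iron-sulphur protein, and Uqcrq also rose, with log2 fold changes of 0.86 and 0.70. The core proteins Uqcrc1 and Uqcrc2 (0.16 and 0.76) and Uqcr11 (0.40) did not pass the test.

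Complex IV, cytochrome c oxidase, held the widest range, from -0.74 to 2.33 with a median of 0.64 over 16 tested genes. Cox7c, Cox6c, Cox5b, Cox6b1, Cox7b and the muscle isoform Cox7a1 rose, and Cox4i2 and Cox6b2 fell. Cox7c, a small subunit of the membrane part, was at 41.6, 76.5 and 45.1 FPKM in PBS and at 109, 86.6, 117 and 95.6 FPKM in OL, without overlap. It rose by 0.94 (SE 0.22, limma adjusted p = 0.00937). Cox6b1, which bridges the oxidase dimer, spanned 116 to 170 FPKM in PBS and 183 to 259 FPKM in OL and rose by 0.73 (SE 0.20, limma adjusted p = 0.0156). Cox6a1, at a mean of 321 FPKM the most abundant of all members, had a log2 fold change of 0.11 (SE 0.21, limma adjusted p = 0.689), and the ubiquitous Cox4i1, Cox7a2 and Cox8a had 0.46, 0.21 and 0.27, none past the test. Cox7a2l, a relative of Cox7a2 that takes part in joining complexes III and IV, had 0.10 (limma adjusted p = 0.538).

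In ATP synthase 8 of 17 tested genes rose and none fell, with a median log2 fold change of 0.52. Atp5mpl, a small proteolipid attached to the membrane part, was at 22.5, 39.2 and 19.5 FPKM in PBS and at 58.3, 57.5, 72.2 and 64.9 FPKM in OL. Atp5k, the e subunit, which takes part in dimer formation, was at 10.1, 17.7 and 15.7 FPKM in PBS and at 34.1, 26.5, 33.9 and 31.8 FPKM in OL. For both, all OL libraries were above all PBS libraries, and they had the smallest adjusted p-values of the members. Atp5mpl rose by 1.25 (SE 0.24, limma adjusted p = 0.00509) and Atp5k by 1.10 (SE 0.20, limma adjusted p = 0.00451). Atp5f1, the b subunit of the peripheral stalk, spanned 24.6 to 47.1 FPKM in PBS and 56.2 to 70.0 FPKM in OL and rose by 0.85 (SE 0.21, limma adjusted p = 0.0107). Atp5l, the g subunit, spanned 1.79 to 3.37 FPKM in PBS and 3.82 to 4.66 FPKM in OL and rose by 0.59 (SE 0.14, limma adjusted p = 0.0109). Atp5c1, Atp5h, Atp5j and Atp5j2 were the others that rose, by 0.52 to 0.76. Of the 5 subunits of the F1 head and its stalk, grouped after their values were seen, only Atp5c1 rose, and the catalytic subunits Atp5a1 and Atp5b had log2 fold changes of 0.38 and 0.52 (limma adjusted p = 0.267 and 0.188).

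**Figure D2:**
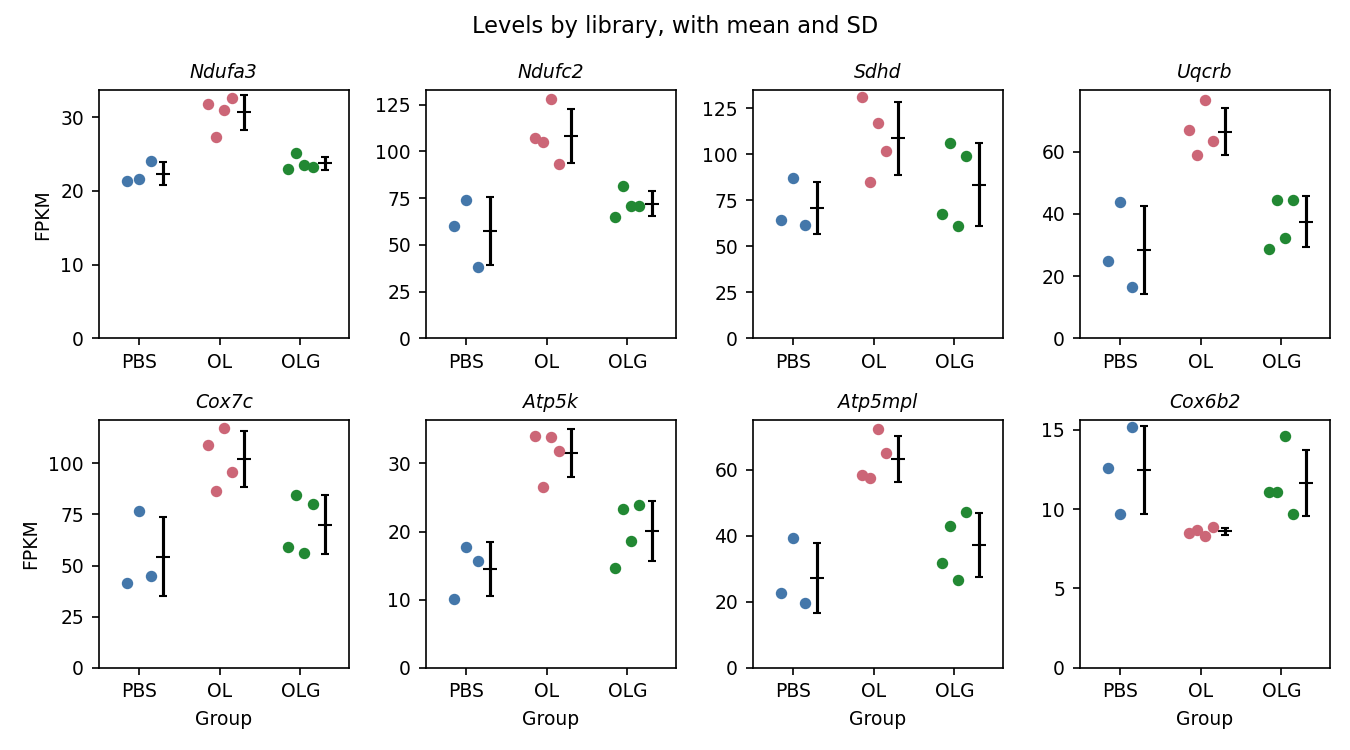
Levels of 8 subunit genes in FPKM by group (PBS, OL and OLG on the horizontal axis), with 1 point per library and the mean with its SD to the right of the points. For Ndufa3, Ndufc2, Uqcrb, Cox7c, Atp5k and Atp5mpl the 4 OL points lie above all PBS and OLG points; for Cox6b2 they lie below them.

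The count of genes that rose depended on single libraries. It was 16 without PBS 1 (14.1% of all genes rose), 11 without PBS 3 (8.39%), 19 without OL 12 (12.7%), 17 without OL 56 (10.8%), 20 without OL 78 (10.8%) and 48 without PBS 2 (21.7%). In each of the first 5 cases all of the genes counted were among the 35. Ndufa3, Ndufa5, Ndufc2, Ndufb3, Uqcrb, Uqcrh, Cox7c, Atp5f1, Atp5k, Atp5l and Atp5mpl passed the test whichever of the 7 PBS and OL libraries was left out.

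The second comparison asked what GGsTop changed in challenged airways. Most subunit genes had lower estimates in OLG than in OL, but 1 of the 82 fell (1.22%, where 1.81% of all genes fell) and none rose (6.9% of all genes rose). The estimate was negative for 75 and positive for 7, and the median log2 fold change was -0.32, against 0.03 for all genes. By complex the medians were -0.31, -0.32, -0.50, -0.33 and -0.29 from complex I to ATP synthase. In 14 members every OLG library lay below every OL library (17.1%, against 12.4% of all genes). Of the 82 members 25 had an unadjusted p under 0.05, beside 4319 of all 14004 genes in either direction. With limma's voom on fragments recovered from the FPKM, 2 members fell and 0 rose (1.6% and 6.51% of all genes). With array weights 28 members fell (14.2% of all genes fell), and with only the OL and OLG libraries in the fit 16 fell (10% of all genes). With the library medians set equal, 3 members fell in place of 1, where 2.53% of all genes fell. All genes then divided into 344 higher and 354 lower calls in place of 966 and 254.

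Ndufa3 was the gene that fell. It was at 23, 25.1, 23.5 and 23.3 FPKM in OLG, all below the 27.3 to 32.6 FPKM of OL, and all but OLG 2 within the 21.3 to 24.1 FPKM of PBS. Its log2 fold change was -0.35 (SE 0.09, limma adjusted p = 0.0337), and it no longer passed the test when any 1 of the 8 libraries was left out, OLG 4 included, without which Atp5k and Atp5mpl passed instead. Atp5mpl was at 31.6, 42.9, 26.6 and 47.3 FPKM in OLG, Atp5k at 14.6, 23.3, 18.6 and 23.9 FPKM and Uqcrb at 28.7, 44.3, 32.3 and 44.4 FPKM. All of these values were below those of OL, with OLG 1 and OLG 3 below OLG 2 and OLG 4 in each gene. The log2 fold changes were -0.78 for Atp5mpl (SE 0.22, limma adjusted p = 0.0505), -0.65 for Atp5k (SE 0.19, limma adjusted p = 0.0526) and -0.83 for Uqcrb (SE 0.25, limma adjusted p = 0.0576), just outside the threshold. Ndufc2 had -0.58 (limma adjusted p = 0.0651) and Sdhd -0.40 (limma adjusted p = 0.201). Cox6b2 had the highest estimate, 0.39 (SE 0.14, limma adjusted p = 0.0954), with all OLG libraries above all OL libraries. The 2 comparisons share the OL libraries, so that a high or low OL library moves both.

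Between OLG and PBS no member passed the test, where 2.88% of all genes did. At an unadjusted p under 0.05 there were 4 members, beside 2873 of all 14004 genes. Limma's voom on recovered fragments also called 0 members (1.71% of all genes were higher and 0.651% lower). The median log2 fold change was 0.15 (0.01 for all genes), with medians between 0.10 and 0.24 in the 5 complexes. Without PBS 2, 9 members were higher (6.82% of all genes were) and Cox4i2 was lower (4.58% of all genes were). Without OLG 3, Cox4i2 alone was lower (1.63% of all genes). Atp5k had a log2 fold change of 0.45 (SE 0.20, limma adjusted p = 0.234), Ndufb5 0.43 (SE 0.19, limma adjusted p = 0.219) and Sdhc 0.20 (limma adjusted p = 0.52).

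**Figure D3:**
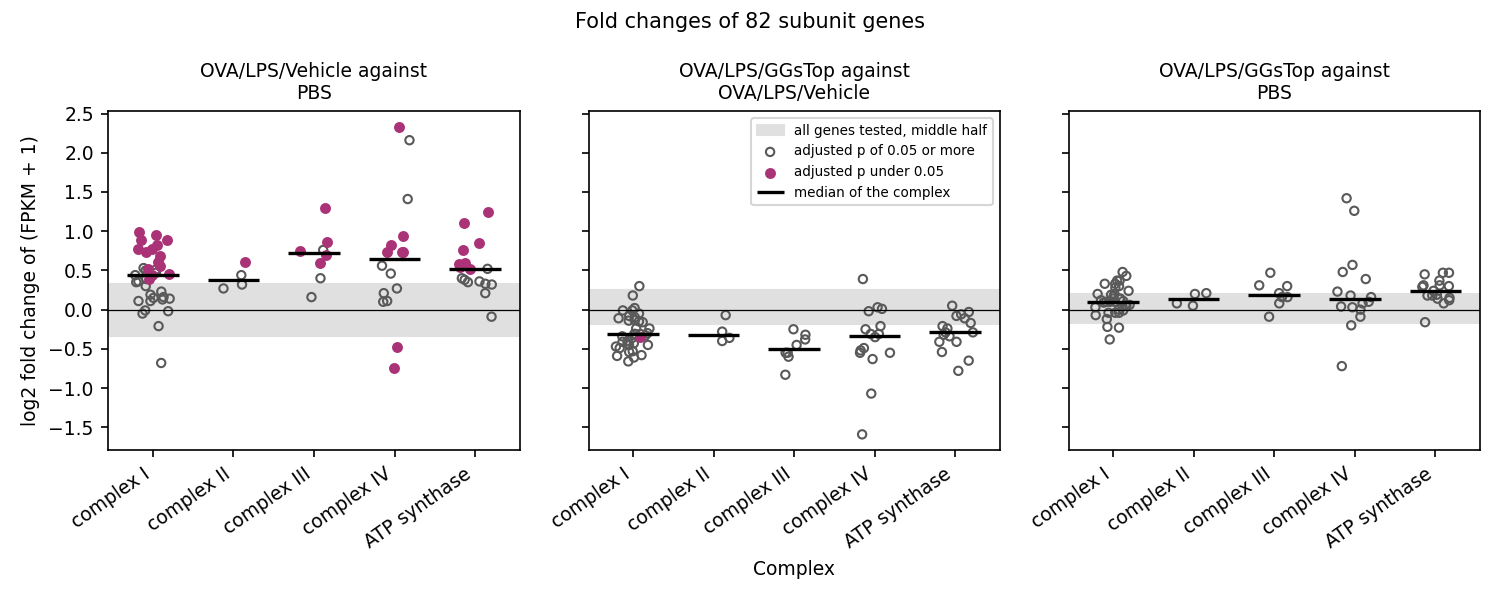
Log2 fold changes of (FPKM + 1) for 82 subunit genes by complex in the 3 comparisons, with filled points for adjusted p under 0.05, a black line at each complex's median and a grey band from the lower to the upper quartile of all genes tested. The medians of all 5 complexes lie above the band in OVA/LPS/Vehicle against PBS and below it in OVA/LPS/GGsTop against OVA/LPS/Vehicle.

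The muscle isoforms of complex IV, Cox7a1, Cox8b and Cox6a2, had the largest standard errors of all members in OL against PBS. Cox7a1, the heart and muscle form of subunit 7a, was at 6.70, 37.6 and 3.31 FPKM in PBS, at 72.3, 33.9, 65.1 and 50.9 FPKM in OL and at 11.8, 52.8, 12.1 and 49.8 FPKM in OLG. Cox8b, the muscle form of subunit 8, was at 23.8, 60.4 and 3.43 FPKM in PBS, at 152, 47.1, 93.6 and 71.5 FPKM in OL and at 12.9, 66.4, 9.51 and 61.4 FPKM in OLG. Cox6a2, the muscle form of subunit 6a, was at 8.69, 108 and 20.9 FPKM in PBS, at 74.8, 56.1, 95.8 and 77.5 FPKM in OL and at 58.5, 114, 36.4 and 132 FPKM in OLG. In each of the 3 genes PBS 2, OLG 2 and OLG 4 were the highest libraries of their groups, and PBS overlapped OL through PBS 2. Cox7a1 rose in OL against PBS by 2.33 (SE 0.72, limma adjusted p = 0.0277). Cox8b had 2.16 (SE 0.88, limma adjusted p = 0.0706) in that comparison and -1.59 (SE 0.81, limma adjusted p = 0.204) in OLG against OL, and Cox6a2 had 1.41 (limma adjusted p = 0.116) and 0.01 (limma adjusted p = 0.993). Cox6a2 also had the highest estimate in OLG against PBS, 1.42 (SE 0.68, limma adjusted p = 0.261).

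As a share of the FPKM of an isoform pair, Cox7a1 made up 9, 28.7 and 4.5% of Cox7a1 plus Cox7a2 in PBS, between 29.9 and 42.8% in OL, and 15, 36.2, 15.2 and 38.3% in OLG. Cox8b made up 11.4, 18.5 and 1.39% of Cox8b plus Cox8a in PBS, 15.7 to 33.1% in OL and 4.21 to 20.4% in OLG. Cox6a2 made up 3.38, 24.7 and 4.87% of Cox6a2 plus Cox6a1 in PBS, 14.2 to 20.8% in OL and 12.5 to 31.1% in OLG. The shares of Cox7a1 in OL thus lay above those of all 3 PBS libraries, whereas the other shares overlapped.

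Cox4i2 and Cox6b2 ran in the opposite direction. Cox4i2, the isoform of subunit 4 found in lung, was at 93.2, 61.1 and 96.2 FPKM in PBS, at 42.1, 52.1, 57.3 and 43.9 FPKM in OL and at 52.1, 48.4, 73.8 and 32 FPKM in OLG. All OL libraries were below all PBS libraries, and it fell by 0.74 on the log2 scale (SE 0.25, limma adjusted p = 0.036), whereas OLG against OL gave 0.03 (limma adjusted p = 0.949) and OLG against PBS gave -0.72 (SE 0.25, limma adjusted p = 0.143). Cox6b2, an isoform of subunit 6b known from testis, was at 12.6, 9.66 and 15.2 FPKM in PBS, at 8.5, 8.68, 8.32 and 8.86 FPKM in OL and at 11.1, 11.1, 14.6 and 9.70 FPKM in OLG. OL was below both other groups without overlap and varied least, and the gene fell by 0.47 on the log2 scale against PBS (SE 0.15, limma adjusted p = 0.0306). Cox4i2 made up 56.2, 35 and 49.4% of Cox4i2 plus Cox4i1 in PBS, 22.5 to 32.8% in OL and 20.8 to 46.4% in OLG. Leaving out PBS 1, PBS 3, OL 12, OL 34 or OL 78 removed both calls, and leaving out OL 56 removed that of Cox6b2. Alveolar markers summed to 10374 to 16681 FPKM in PBS and 5381 to 8836 FPKM in OL. Sftpc alone was at 8176 to 12502 FPKM in PBS and 4164 to 7156 FPKM in OL, and did not pass the test (limma adjusted p = 0.103). Of the 7 alveolar markers, 6 had negative estimates in OL against PBS and 3 fell, where 22.1% of all genes fell. Hopx had a positive estimate, 0.31. The part of the alveolar markers in the result was not tested.

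**Figure D4:**
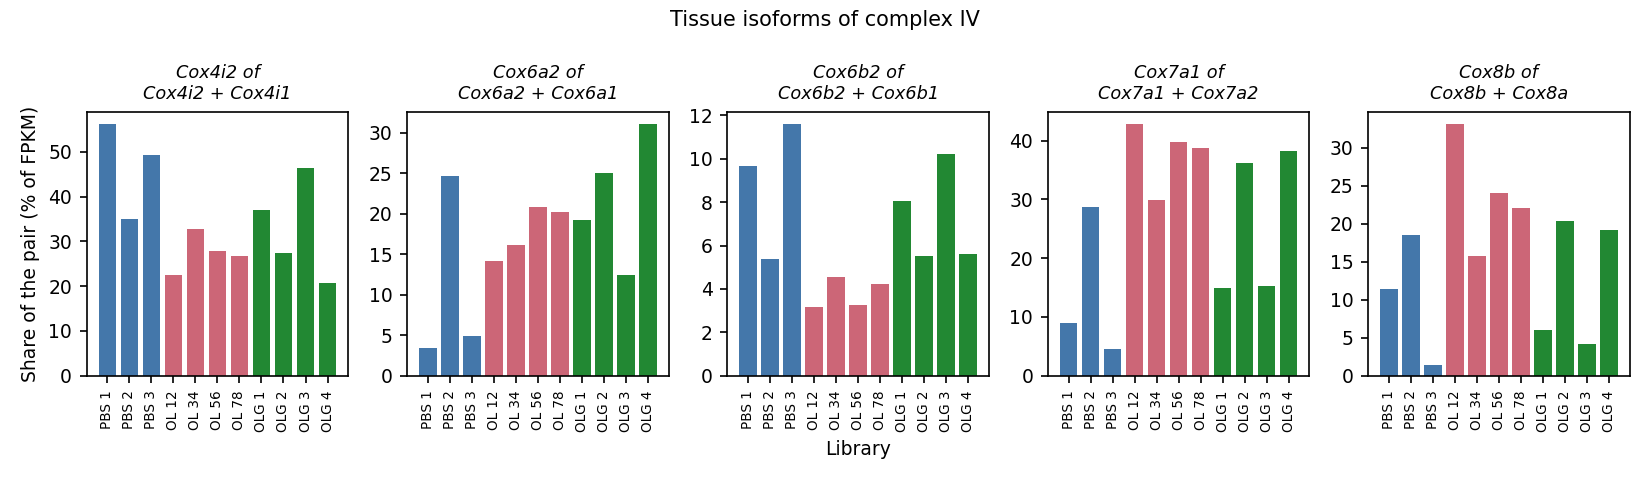
Share of the FPKM of an isoform pair taken by Cox4i2, Cox6a2, Cox6b2, Cox7a1 and Cox8b (5 panels, vertical axis in percent from 0) in each of 11 libraries (bars coloured blue for PBS, red for OL and green for OLG). Cox6a2 and Cox7a1 are lowest in PBS 1 and PBS 3, while Cox4i2 is highest there.

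Within groups, the level of the members moved with cardiac muscle markers in PBS and OLG and with brown fat markers in OL and OLG. Brown fat markers summed to 22, 117, 16.9 and 86.6 FPKM in OLG 1, 2, 3 and 4. White fat markers summed to 104, 466 and 34 FPKM in PBS 1, 2 and 3. In OLG 1, 2, 3 and 4 they summed to 47.5, 270, 26 and 531 FPKM. Their sums of 750, 286, 464 and 387 FPKM in OL 12, 34, 56 and 78 followed the order of the members. Airway epithelium markers other than Scgb1a1 were also highest in PBS 2, OLG 2 and OLG 4 of their groups. In OL they were lowest in OL 12 (3794 FPKM) and stood at 5824 FPKM in OL 34. Between groups, airway smooth muscle markers ran the other way, with median log2 fold changes of -0.41 in OL against PBS and 0.53 in OLG against OL. The cardiac median in OLG against OL was 0.05, whereas those of brown fat and white fat were -1.04 and -1.35, in the members' direction. No marker of these lists passed the test there, and the part of white fat in the members' result was not tested. PBS 2, OLG 2 and OLG 4, with the highest subunit levels of their groups, had cardiac marker sums of 1400, 1751 and 1937 FPKM, against 10.1 and 51.9 FPKM in PBS 1 and 3 and 685 and 408 FPKM in OLG 1 and 3. OL 12 and OL 56, the highest OL libraries, had the highest brown fat sums, 512 and 224 FPKM. An alternative chosen after seeing the data took the cardiac and brown fat levels as covariates. Each level was the mean of log2(FPKM + 1) over all listed markers, those near 0 included, and not the summed FPKM. The median log2 fold change of the members in OL against PBS was then 0.07 in place of 0.47. Only 1 member rose, Atp5mpl (0.693% of all genes rose). In that fit the medians were -0.08 in OLG against OL and -0.07 in OLG against PBS, with no member called in either. Marker levels and groups moved together in these libraries.

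**Figure D5:**
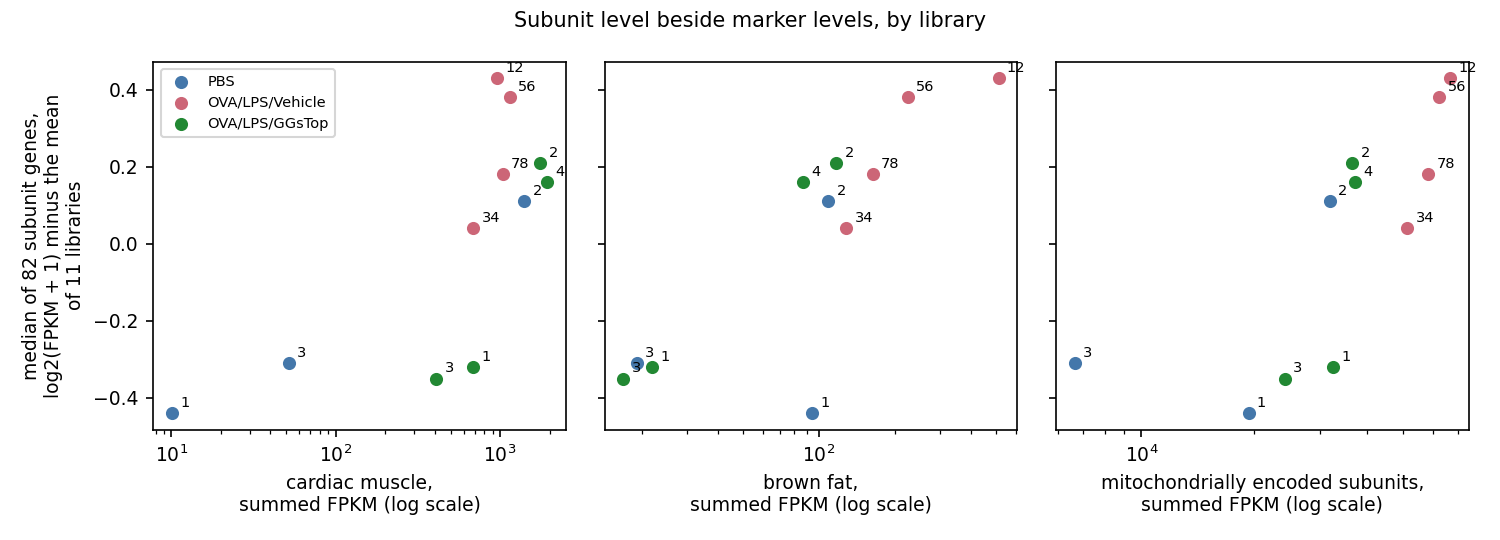
Median level of 82 subunit genes per library (vertical axis, log2 units relative to each gene's mean over 11 libraries) beside the summed FPKM of cardiac muscle markers, of brown fat markers and of mitochondrially encoded subunits (horizontal axes, log scale), with library numbers beside the points. PBS 1 and PBS 3 lie at the lower left of the cardiac panel, and OL holds the 4 highest sums of mitochondrially encoded subunits.

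Base composition moved with the result as well. Over the 82 members, Spearman's rho between a transcript's GC content and its log2 fold change was -0.49 in OL against PBS and 0.39 in OLG against OL, and over all 13987 genes with a GC value it was -0.59 and 0.62. These are descriptions across genes measured in the same libraries. The members' median GC content was 50.3%, close to the 49.9% of all genes, but their transcripts were shorter, with a median of 997 bases against 3318. After correction for GC 25 members rose in OL against PBS (8.11% of all genes rose), 19 of them among the 35. After correction for GC and length 8 rose (7.23% of all genes rose), namely Ndufa5, Ndufa6, Ndufb5, Ndufc2, Cox4i1, Cox6c, Atp5k and Atp5mpl, and the median was 0.29.

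The 13 subunits encoded in mitochondrial DNA join the nuclear ones in all complexes but complex II. All 13 rose in OL against PBS (15.9% of all genes rose), with a median log2 fold change of 2.11. The range was 1.01, for mt-Atp8 at 0 to 2.35 FPKM, to 3.16. In OLG against OL the median was -0.99 and 4 fell, where 1.81% of all genes fell. These were mt-Co2, mt-Atp6, mt-Co3 and mt-Nd3, with means over all libraries of 92.8, 29.6, 38.4 and 3.9 FPKM. Those with means of 916 FPKM or more did not pass the test in OLG against OL (limma adjusted p = 0.128 to 0.242). The FPKM of the 13 summed to 19335, 31842 and 6635 in PBS, to 66728, 51356, 62599 and 58350 in OL and to 32493, 36566, 24165 and 37269 in OLG. OL lay above both other groups without overlap. Mitochondrially encoded genes took 2.08 to 10.1% of the summed FPKM of all genes in PBS, 14.5 to 19.5% in OL and 7.4 to 11.1% in OLG. The libraries were made from poly-A RNA, and the part of the cardiac and brown fat levels in this difference was not tested.

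Genes that act beside the subunits were taken from lists of assembly factors, regulators and related subunits. Of 45 assembly factors tested, 6 rose in OL against PBS (Ndufaf4, Cmc1, Timmdc1, Tmem70, Sdhaf4 and Ttc19) and Cox20 fell, with a median of 0.13, where 15.9% of all genes rose and 22.1% fell. Timmdc1, which helps to build the membrane arm of complex I, spanned 7.88 to 9.58 FPKM in PBS, 11.8 to 13.9 FPKM in OL and 8.81 to 10.2 FPKM in OLG, so that OL did not overlap either group. It rose by 0.54 (SE 0.10, limma adjusted p = 0.00457) and fell in OLG against OL by 0.38 on the log2 scale (SE 0.09, limma adjusted p = 0.0347). Coa6, a complex IV assembly factor, was the other of the 45 to fall in OLG against OL (-0.44, SE 0.12, limma adjusted p = 0.0453), where 1.81% of all genes fell. Of 14 regulators of mitochondrial biogenesis, 4 rose and 3 fell in OL against PBS, beside the same shares of all genes (15.9% and 22.1%). Those that rose were Ppargc1a, the coactivator PGC-1alpha (0.84), Gabpa, an ETS factor of subunit promoters (0.50), and Tfam and Tfb2m, factors of mitochondrial DNA transcription (0.32 and 0.57). Ppargc1a is also 1 of the brown fat markers, and its 2.51 FPKM in PBS 2 lay within the 2.47 to 3.55 FPKM of OL. The 3 that fell were Hcfc1 (-0.69), the PGC-1-related Pprc1 (-0.50) and Nrf1 (-0.42). Hcfc1 and Pprc1 rose in OLG against OL (0.47 and 0.56, limma adjusted p = 0.0204 and 0.0198), where 6.9% of all genes rose. Of 7 tested subunits and carriers whose names lie outside the rule, 3 rose in OL against PBS, where 15.9% of all genes rose. These were Cycs, the electron carrier cytochrome c (1.41), Usmg5, a small ATP synthase subunit (1.06), and Atpif1, the inhibitor of ATP synthase (0.45). None of the 7 passed the test in OLG against OL, where 3 had an unadjusted p under 0.05, beside 4319 of all 14004 genes.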

How the data were processed

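RNA-seq was performed on poly-A RNA of 11 airway libraries. The authors deposited FPKM per gene (fragments per kilobase, scaled to each library's mapped fragments). The submitters' processing notes name cutadapt 1.15, HISAT2 2.0.5, HTSeq 0.9.1 and mm39, and the annotation release is not given in the sources used here. The authors ran DESeq, a test for counts. Because the values used here are FPKM, limma 3.58.1 in R 4.3.3 was run on log2(FPKM + 1), with a mean-variance trend, all 11 libraries in 1 fit, a minimum mean of 0.5 FPKM (14004 genes), two-sided tests and Benjamini-Hochberg adjustment over all genes. Fold changes on this scale understate those of low genes. A gene rose or fell where adjusted p was under 0.05.

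In 97.6% of genes the FPKM were whole fragments in every library, within 0.05 fragments. Tested members had 21 to 19353 fragments per library with a median of 1123, and small genes with pseudogene copies or overlapping genes are uncertain. Biotypes came from GENCODE M21, which matched 21795 of 21899 genes. The fits were tested on simulated data.

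The members and lists were chosen with earlier results of these data known. The rule named the most abundant member of each complex, its smallest p in each comparison, the called members (the 10 with the smallest p where more), all of complex II, the complex IV isoforms, the highest and lowest fold changes and the members under the filter. Ndufa4l2, the core and F1 subunits and full lists of calls were added after their values were seen. Ndufa4l2 was dropped from the list of subunits outside the rule because it is a member. Alternatives were pseudocount, filters, scaling, array weights, GC and length correction, voom on recovered fragments, 2 groups only, single libraries left out and, for PBS and OLG, a replicate block. Same-numbered PBS and OLG libraries deviated together (correlations 0.37, 0.43 and 0.43 over 14004 genes), but the differently numbered PBS 2 with OLG 4 gave 0.64 and PBS 1 with OLG 3 gave 0.46, and the numbers came from the titles.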

Additional observations from a re-analysis of the deposited data

Results flagged for a closer look

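The summed FPKM of thymus and T cell markers in OL 12 was 65.8, the highest of its group, and its gap to the next OL library was 0.861 of the group's range, above Dixon's 95% critical value for 4 samples. The other OL libraries had 6.42, 14.7 and 9.79 FPKM. It was the only flag among 120 groups of 4 libraries examined, where chance flags about 1 in 20. OL 12 was also the OL library with the highest median of the subunit genes, 0.43, and with the highest brown fat marker sum, 512 FPKM. Without it 19 subunit genes rose in OL against PBS (12.7% of all genes rose), in place of 35.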

How the results depend on the processing

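Of 538 alternative values for 27 member results, 453 kept direction and side of the threshold, 62 lost significance, 20 gained it and 3 reversed. With array weights, which gave PBS 1 a weight of 3.89 and PBS 3 one of 0.15, 63 members rose in OL against PBS (24.6% of all genes rose), 28 fell and 1 rose in OLG against OL (14.2% and 23.1% of all genes), and 5 were higher and 1 lower in OLG against PBS (9.85% and 8.41%). With only the 2 groups compared, 16 fell and 1 rose in OLG against OL (10% and 15.1% of all genes). The members that fell in OLG against OL numbered 2 with a minimum mean of 1 FPKM, with GC correction or with voom, 3 with equal medians, and 0 with GC and length correction or with marker covariates. In that order, the shares of all genes that fell were 2.08, 0.436, 1.6, 2.53, 0.157 and 0.00714%. In OL against PBS, GC and length correction gave 8 that rose, 7 of them among the 35, and 1 that fell. The gene that fell was Atp5s, which had 0.35 in the main fit and is outside the 27 member results. Neither Cox4i2 nor Cox6b2 fell in that fit. With GC correction 0 fell, and with no filter 1. The marker covariates left 1 that rose and 0 that fell, with a median of 0.07. The reversals were Cox7c in OL against PBS (-0.01, GC and length correction) and, with marker covariates, Cox8b in OLG against OL (0.34) and Cox6a2 in OLG against PBS (-0.30). The cause of these changes was not tested.

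Without 1 library the members that rose in OL against PBS numbered 11 to 48 and those that fell 0 to 3. In OLG against OL 0 to 2 fell, and in OLG against PBS 0 to 9 were higher and 0 to 1 lower. With the replicate block for PBS and OLG, 0 members were called, with a median of 0.09, and the same with GC correction; it changed no call. Fewer fragments limit the lowest members, at 21 in a library.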

Other observations

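Beside the respiratory chain, 2 further groups of mitochondrial genes were counted. Of 17 enzymes of the TCA cycle and pyruvate dehydrogenase, 5 rose in OL against PBS, where 15.9% of all genes rose: Dld (1.14), Sucla2 (1.11), Idh3a (1.06), Dlat (0.92) and Suclg2 (0.60). The median log2 fold change of the 17 was 0.50 in OL against PBS and -0.45 in OLG against OL. None passed the limma test in OLG against OL, and 3 had an unadjusted p under 0.05, beside 4319 of all 14004 genes. Cs, citrate synthase, had 0.50 (limma adjusted p = 0.199). Of 77 mitochondrial ribosomal proteins tested, 20 rose and 5 fell in OL against PBS (15.9% and 22.1% of all genes did), with a median of 0.16 and a range from -0.62 to 1.08. In OLG against OL 4 of the 77 fell, where 1.81% of all genes fell.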
